A study of Mus musculus with 12 samples.

Results

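Endothelial cells of the adult mouse brain from a pair of mutants were set against each other: mice with gain of function of beta-catenin and mice labelled as knockouts of the histone deacetylase gene Hdac2. The members were the 3 libraries titled beta-catenin GOF and the 3 titled Hdac2 ECKO, 6 of the 12 libraries in the series, described over the 12577 of 21638 genes whose counts averaged 10 or more across the 12 libraries. The cells were cortical endothelial cells sorted as positive for CD31 and negative for CD41 and CD45, and their RNA was amplified with a kit for very small inputs (SMART-Seq v4 PLUS). The beta-catenin GOF mice carried Ctnnb1lox/lox with Cdh5CreERT2, and the Hdac2 ECKO mice Hdac2lox/lox with the same Cre, a recombinase that tamoxifen activates and that is driven by the promoter of the endothelial VE-cadherin gene. Both groups received tamoxifen at 75 mg/kg in 5 doses, and brains were taken 2 months later. The WT group and the libraries labelled Ezh2 ECKO (Ezh2lox/lox with the same Cre and treatment) are used here for reference levels, and the labels do not say whether WT mice were given tamoxifen. Strain, sex and exact age are not given, nor which exon of Ctnnb1 is flanked by lox sites.

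Beta-catenin is the nuclear effector of canonical Wnt signalling: when the destruction complex of Apc, Axin and Gsk3 proteins no longer degrades it, it binds TCF/LEF factors and switches on genes such as Axin2 and Lef1. In brain endothelium this pathway is needed for the growth of vessels into the developing brain and for the blood-brain barrier. Hdac2 removes acetyl groups from histones within the Sin3, NuRD and CoREST corepressor complexes, together with its close relative Hdac1.

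The 6 libraries held 24781070 to 36109975 counts, with all 3 of the libraries labelled Hdac2 ECKO at or below 26071384 and all 3 of beta-catenin GOF at or above 32405794. Levels are given as CPM, counts per 1000000 of the TMM-scaled library total, in the order of replicates 1, 2 and 3. Log2 CPM profiles correlated across genes with r from 0.934 to 0.946 within beta-catenin GOF, from 0.923 to 0.951 within the libraries labelled Hdac2 ECKO, and from 0.886 to 0.954 between the groups. The labels do not say that replicates came from separate animals, so p-values measure the spread between these libraries, which may be technical. On the first principal component of all 12 libraries, which took 29.3% of the variance, the library labelled Hdac2 ECKO 2 lay at 9.30, apart from 84.3 and 58.3 for the others of its group, and beta-catenin GOF lay between −31.4 and −13.1. Summed CPM of 10 endothelial markers, all of them tested, was 18320 to 21250 in beta-catenin GOF and 12200 to 14520 in the libraries labelled Hdac2 ECKO, ranges that do not overlap, against 16030 to 21900 in WT. Ly6c1 alone, at 13502 ± 2118 and 8132 ± 823 CPM (SD, n = 3 each), carried most of that sum: without it the group means summed to 6276 and 5597 CPM. Of the 10 markers 4 lay higher and 6 lower in beta-catenin GOF, and their median log2 fold change was −0.16.

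The targeted genes come first. Hdac2 (ENSMUSG00000019777.16 on the plus strand of chromosome 10, 36974544 to 37001889, GRCm38) stood at 82.2, 95.0 and 112 CPM in the libraries labelled Hdac2 ECKO and at 88.6, 92.3 and 108 CPM in beta-catenin GOF, so the ranges overlap (log2 fold change −0.01 with SE 0.24, adjusted p 0.993 in edgeR). WT held 163, 122 and 104 CPM, and the library labelled Hdac2 ECKO 3 lay inside that range. A lower Hdac2 level in the group named for its loss was therefore not seen against the other mutant, and that group is called by its label throughout. Ctnnb1 (ENSMUSG00000006932.17 on the plus strand of chromosome 9, 120929216 to 120960507), whose locus is shared in antisense with Ulk4, stood at 696, 576 and 478 CPM in beta-catenin GOF and 1302, 845 and 1324 CPM in the libraries labelled Hdac2 ECKO. All 3 beta-catenin GOF values were below all 3 others, and the difference did not pass the threshold (log2 fold change −0.99 with SE 0.29, adjusted p 0.168 in edgeR). Counts per gene cannot show the loss of an exon from a transcript that otherwise remains, so neither gene's level tests recombination where only an exon is lost.

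Across the transcriptome, 9 genes differed between the 2 mutants at an adjusted p under 0.05 (edgeR quasi-likelihood test, Benjamini-Hochberg over 12577 genes, 0.0716% of those tested): 6 were higher in beta-catenin GOF (0.0477%) and 3 were lower (0.0239%). The 3 lower genes were Npw, which encodes a neuropeptide precursor, Cp, which encodes the copper-carrying ferroxidase ceruloplasmin, and Hjurp, which encodes the chaperone that loads the centromeric histone CENP-A. The higher genes included Gsta4, a glutathione transferase that conjugates aldehydes from lipid peroxidation, Serpine2, a secreted inhibitor of thrombin and plasminogen activators, and Cdkn1a, a cyclin-dependent kinase inhibitor. The others were Cd59b, a membrane inhibitor of complement; Sft2d1, a membrane protein of vesicle transport; and Gimap4, a GTPase of the immunity-associated family. In bulk libraries, fewer cells of a type and less RNA per cell cannot be told apart. In all, 2658 genes had an unadjusted p under 0.05 (21.1% of those tested), 11.3% higher and 9.8% lower. In other settings the shares of all genes called higher and lower were 6.53% and 3.08% in DESeq2, 3.51% and 1.29% in edgeR without a count filter, and 14.4% and 12.1% in limma with sample quality weights.

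Npw (ENSMUSG00000071230.6 on the minus strand of chromosome 17, 24657330 to 24658457) gave the smallest p. It held 0.205, 0.106 and 0.116 CPM in beta-catenin GOF, from 6, 4 and 4 counts, against 8.86, 5.87 and 14.6 CPM in the libraries labelled Hdac2 ECKO, from 234, 180 and 421 counts. It was nearly silent in all 3 beta-catenin GOF libraries and clearly present in all 3 others (log2 fold change −6.09 with SE 0.89, adjusted p 0.0328 in edgeR). WT held 0, 0 and 0.356 CPM and the libraries labelled Ezh2 ECKO 10.3, 10.9 and 7.90 CPM, so WT stood with beta-catenin GOF and the labelled Ezh2 ECKO libraries with the labelled Hdac2 ECKO ones. Cp (ENSMUSG00000003617.16 on the plus strand of chromosome 3, 19957054 to 20009145), which overlaps Hps3 on the opposite strand, held 22.9, 77.9 and 37.4 CPM in beta-catenin GOF and 358, 210.5 and 254 CPM in the libraries labelled Hdac2 ECKO (log2 fold change −2.57 with SE 0.40, adjusted p 0.0328 in edgeR). Here beta-catenin GOF was the group that stood apart: WT held 149, 217 and 218 CPM, above every beta-catenin GOF library. Hjurp (ENSMUSG00000044783.16 on the minus strand of chromosome 1, 88262471 to 88277633) held 3.82, 1.79 and 1.74 CPM in beta-catenin GOF and 21.2, 20.4 and 24.3 CPM in the libraries labelled Hdac2 ECKO (log2 fold change −3.17 with SE 0.53, adjusted p 0.0389 in edgeR). WT held 1.74, 8.80 and 10.8 CPM of Hjurp and overlapped beta-catenin GOF only through its lowest library.

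Of the genes that were higher in beta-catenin GOF, Gsta4 (ENSMUSG00000032348.6 on the plus strand of chromosome 9, 78182774 to 78209349) had the largest difference. Its levels were 1100.5, 939 and 1469.7 CPM in beta-catenin GOF and 275, 128 and 55.5 CPM in the libraries labelled Hdac2 ECKO (log2 fold change 2.94 with SE 0.47, adjusted p 0.0328 in edgeR). WT stood at 651, 664 and 779 CPM, between the ranges of both mutants. Serpine2 (ENSMUSG00000026249.10 on the minus strand of chromosome 1, 79794197 to 79861180) stood at 151, 174 and 333 CPM against 49.7, 35.3 and 48.7 CPM (log2 fold change 2.30 with SE 0.40, adjusted p 0.0483 in edgeR). The WT libraries, at 56.6, 25 and 25.3 CPM, were all below beta-catenin GOF, so for this gene the high group was beta-catenin GOF. Cdkn1a (ENSMUSG00000023067.14 on the plus strand of chromosome 17, 29090976 to 29100727) stood at 131, 122 and 126 CPM against 32.5, 34.6 and 40.1 CPM (log2 fold change 1.82 with SE 0.32, adjusted p 0.0483 in edgeR), and neither group spread into the other. WT held 207, 168 and 111 CPM of Cdkn1a, a range that takes in all 3 beta-catenin GOF libraries and lies above all 3 labelled Hdac2 ECKO libraries.

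Cd59b (ENSMUSG00000068686.12 on the plus strand of chromosome 2, 104069849 to 104091187) held 77.5, 67.3 and 90.2 CPM in beta-catenin GOF and 14.8, 27.3 and 24.8 CPM in the libraries labelled Hdac2 ECKO (log2 fold change 1.81 with SE 0.29, adjusted p 0.0328 in edgeR). It has a close copy, Cd59a, and reads divided between both would make its count uncertain. Sft2d1 (ENSMUSG00000073468.12 on the plus strand of chromosome 17, 8311102 to 8327442) held 339, 287 and 270.0 CPM against 68.3, 129.5 and 79.1 CPM (log2 fold change 1.69 with SE 0.27, adjusted p 0.0328 in edgeR). Gimap4 (ENSMUSG00000054435.16 on the plus strand of chromosome 6, 48684549 to 48692060), a member of a gene family with related neighbours, held 31.8, 30.7 and 38.2 CPM against 9.73, 8.52 and 13.2 CPM (log2 fold change 1.68 with SE 0.27, adjusted p 0.0328 in edgeR). For Cd59b the WT libraries, at 43.2, 28.3 and 29.0 CPM, lay below beta-catenin GOF and above the libraries labelled Hdac2 ECKO, with no overlap in either direction. For Sft2d1 and Gimap4 WT held 204, 223 and 276 CPM and 20.6, 25.1 and 18.1 CPM, above the libraries labelled Hdac2 ECKO in every library.

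**Figure D1:**
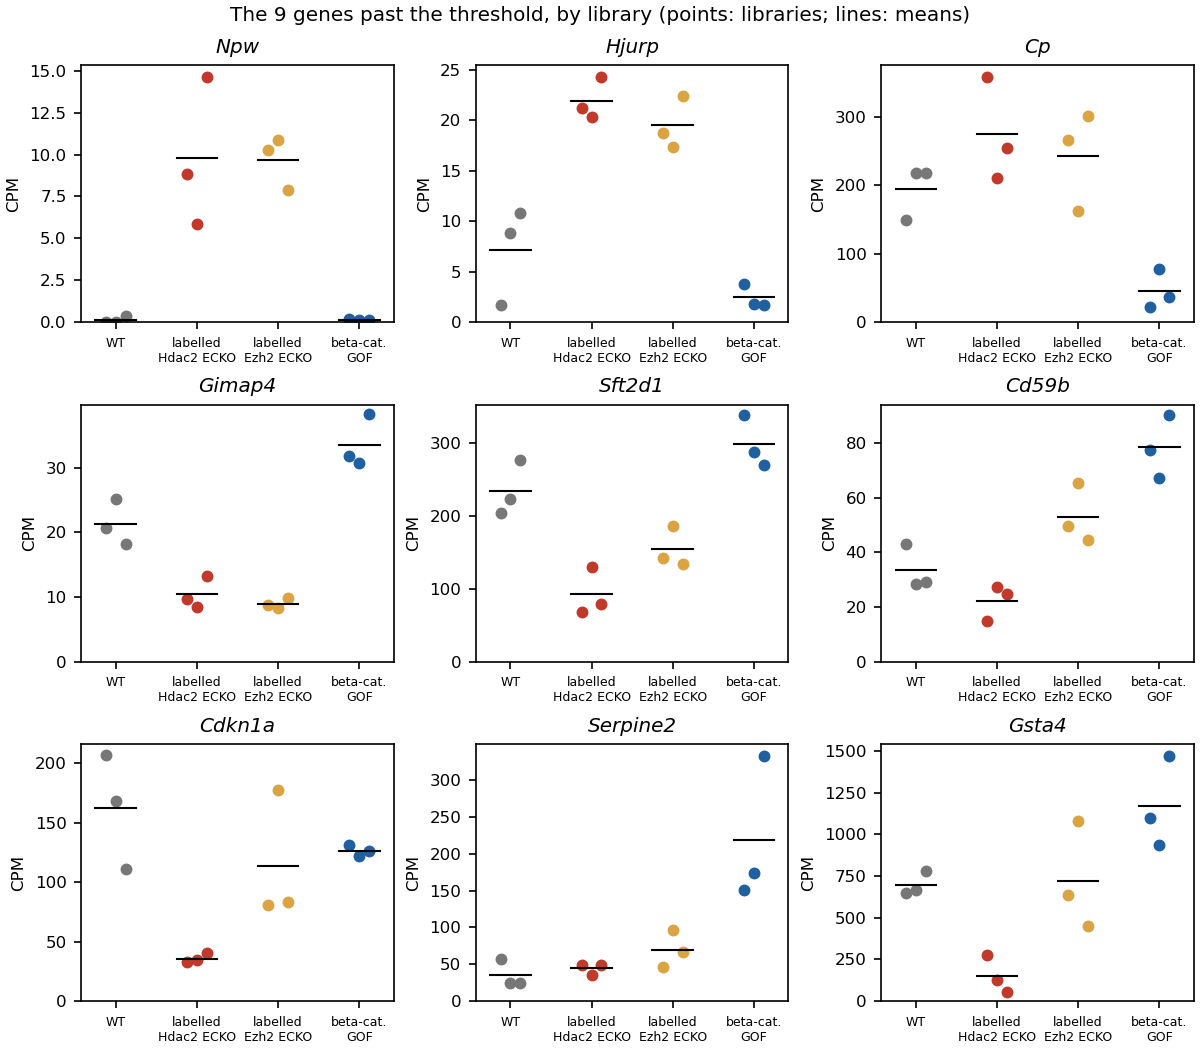
CPM of the 9 genes past the threshold (vertical axis, linear from 0) in each library of the 4 groups (horizontal axis); points are libraries and lines are group means of 3. Cdkn1a lies between 122 and 131 CPM in beta-catenin GOF and between 32.5 and 40.1 CPM in the libraries labelled Hdac2 ECKO.

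Each of the 9 genes kept its direction in all 20 alternative fits. The 9 were picked by p from these same libraries and their groups did not overlap, so the kept direction adds no support. The number of calls did not hold: sample quality weights gave 3339. Leaving out beta-catenin GOF 1, 2 or 3 gave 0, 1 or 0 genes. Leaving out the library labelled Hdac2 ECKO 1, 2 or 3 gave 3, 538 or 0 genes. Of the 6 leave-one-out fits, Npw, Cp and Gsta4 passed in 2, and Gimap4, Sft2d1, Cd59b, Hjurp, Serpine2 and Cdkn1a in 1. Scaling by library size alone shifted the all-gene median from −0.07 to −0.27 on the log2 scale and called 1 gene higher and 3 lower, so directions are relative to TMM scaling.

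Of the 9 genes, 7 had an entry among the RefSeq promoters (GRCm38.p6; 250 bases before to 50 after the start), and Npw and Gsta4 had none. Cp and Cdkn1a had 2 entries each. For a gene with more than 1 entry, only the entry nearest the start of the gene model was searched for its matches. Shown here are the promoters of Cp and Gimap4, the first in order of p among those with an entry and 1 from each direction, and of Cdkn1a, chosen after its values were seen because it leads the group of p53 target genes described further on. Letters in capitals mark matches to the p53 half-site, a 10-base consensus whose search was added after the data were seen. All motifs were searched on both strands, the others being the TCF/LEF core CTTTGAT, the TATA box TATAAA and the GC box GGGCGG. Cp, chr3:19956804-19957103, plus strand, 5′ to 3′, held none of the 4 motifs. Gimap4, chr6:48684328-48684627, plus strand, held none. Cdkn1a, chr17:29090729-29091028, plus strand, held 2 p53 half-sites, at positions 178 and 200 of the printed sequence, and none of the others.
Cp: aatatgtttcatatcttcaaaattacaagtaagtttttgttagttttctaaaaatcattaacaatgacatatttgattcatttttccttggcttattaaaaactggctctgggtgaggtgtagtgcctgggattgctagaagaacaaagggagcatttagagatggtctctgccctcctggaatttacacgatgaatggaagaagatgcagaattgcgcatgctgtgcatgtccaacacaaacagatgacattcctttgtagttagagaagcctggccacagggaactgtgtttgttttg
Gimap4: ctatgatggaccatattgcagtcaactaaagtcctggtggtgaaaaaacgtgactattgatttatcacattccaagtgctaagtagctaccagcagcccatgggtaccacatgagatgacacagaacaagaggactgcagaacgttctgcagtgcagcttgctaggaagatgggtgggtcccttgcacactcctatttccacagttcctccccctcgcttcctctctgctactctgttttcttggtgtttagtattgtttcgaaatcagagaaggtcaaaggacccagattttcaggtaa
Cdkn1a: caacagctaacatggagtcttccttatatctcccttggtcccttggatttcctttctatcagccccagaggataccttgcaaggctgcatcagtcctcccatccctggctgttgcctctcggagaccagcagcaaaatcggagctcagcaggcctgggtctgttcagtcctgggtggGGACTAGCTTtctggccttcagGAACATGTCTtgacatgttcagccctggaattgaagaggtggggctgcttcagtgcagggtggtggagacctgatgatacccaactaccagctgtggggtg
Over all 32851 RefSeq promoters searched, 8.36% held a p53 half-site, 3.73% the TCF/LEF core, 13.6% the TATA box and 35.7% the GC box. A match is a description of the letters in this window, not a bound site.

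Gene length ordered the differences between these mutants. Length here is the feature length given with the counts, and how it was derived is not given. It can be far shorter than the span between a gene's coordinates, as for Serpine2. Across the 12577 genes, the log2 fold change of beta-catenin GOF over the libraries labelled Hdac2 ECKO correlated with gene length with Spearman's rho −0.442, a description across genes that share the same 6 libraries. Genes were put into 5 groups of equal size by length. In the shortest group (90 to 2419 bases) the median log2 fold change was 0.48 and 73.8% of genes were on the higher side in beta-catenin GOF. In the longest group (7663 to 123179 bases) the median was −0.48 and 17.2% were on the higher side. The 3 groups between had medians of 0.19, −0.08 and −0.25 in order of length. Over all genes the 3 values of each group did not overlap for 32% of genes, 16.1% higher in beta-catenin GOF and 15.9% lower, but for 35.8% and 4.17% in the shortest group and for 3.54% and 36% in the longest. GC content of the longest transcript correlated with the log2 fold change with rho 0.266 over the 12481 genes that have a value.

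**Figure D2:**
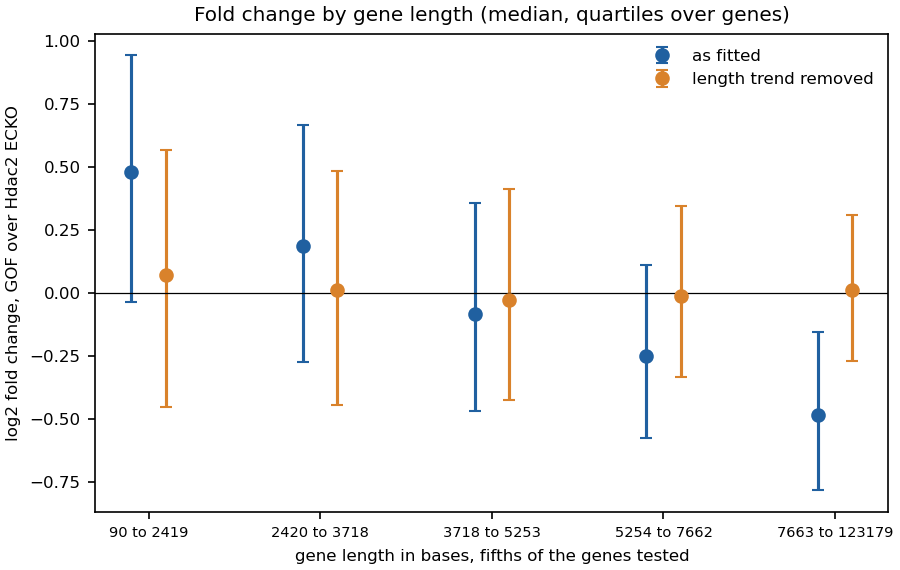
Log2 fold change of beta-catenin GOF over the libraries labelled Hdac2 ECKO (vertical axis) in 5 groups of gene length in bases (horizontal axis); points are medians over genes and bars run from the lower to the upper quartile. As fitted the medians run from 0.48 to −0.48, and with the length trend removed they lie between −0.03 and 0.07.

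The trend was present library by library. Relative to the mean of all 12 libraries, the median log2 CPM of the shortest group was −0.42, −0.11 and −0.32 in the libraries labelled Hdac2 ECKO and 0.31, 0.17 and 0.13 in beta-catenin GOF. That of the longest group was 0.50, 0.13 and 0.40 in the libraries labelled Hdac2 ECKO and −0.10, −0.12 and −0.15 in beta-catenin GOF. The library labelled Hdac2 ECKO 2 had the smallest slope of its group, with a rho of 0.191 between deviation and length against 0.375 and 0.392 for replicates 1 and 3. Beta-catenin GOF libraries had rho from −0.244 to −0.183 and WT libraries from −0.306 to −0.245, so WT and beta-catenin GOF shared the sign of the trend. The libraries labelled Ezh2 ECKO did not share 1 sign, with rho of 0.264, −0.325 and 0.339 for replicates 1, 2 and 3. The 20 most abundant genes took 13.4% to 14.2% of the counts in the libraries labelled Hdac2 ECKO and 17.2% to 19.3% in beta-catenin GOF; the part of library composition in the trend was not tested.

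**Figure D3:**
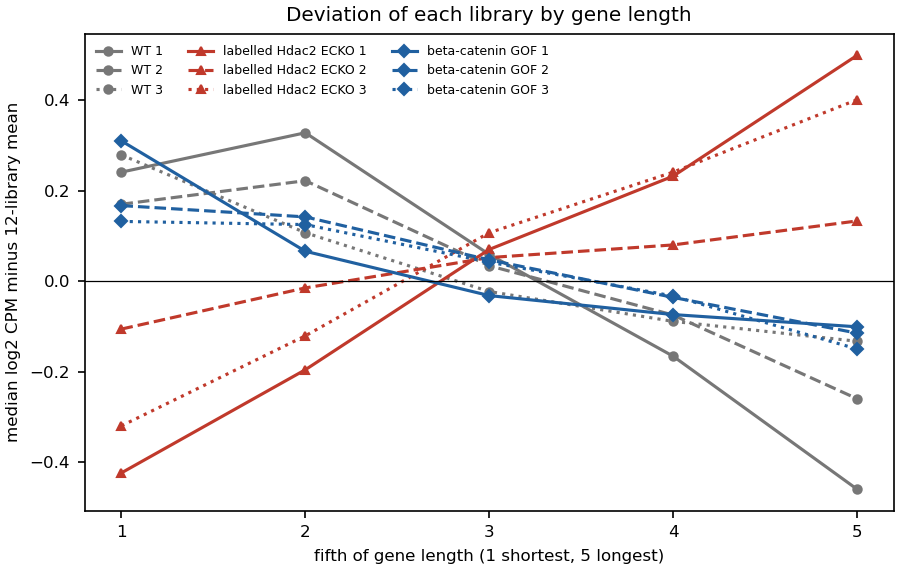
Median deviation of log2 CPM from the mean of all 12 libraries (vertical axis) in 5 groups of gene length (horizontal axis, 1 shortest), 1 line per library of WT, beta-catenin GOF and the libraries labelled Hdac2 ECKO. The lines of the libraries labelled Hdac2 ECKO rise with length, to between 0.13 and 0.50, and those of beta-catenin GOF fall, to between −0.15 and −0.10. The libraries labelled Ezh2 ECKO are not drawn.

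With a smooth length trend removed from every library, rho was −0.02 and 1 gene passed, Npw (log2 fold change −6.38, edgeR adjusted p 0.0264; 0.00795% of genes tested). The other 8 genes kept their direction and none passed. Sft2d1, Serpine2, Cdkn1a and Cp lay just outside, each with an edgeR adjusted p of 0.0512 and log2 fold changes of 1.54, 2.69, 1.74 and −2.10. Hjurp (0.0833), Gsta4 (0.0883), Cd59b (0.117) and Gimap4 (0.198) had larger edgeR adjusted p-values. The difference of Serpine2, with a feature length of 8287 bases, was larger with the trend removed, and that of Gsta4, with 1266 bases, was smaller. Groups did not overlap for 14.4% of genes higher and 9.73% lower after the removal.

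Target genes of the tumour suppressor p53 and genes of cell cycle arrest and senescence were the list with the highest median among the 14 pathway lists. The lists were chosen with earlier results of these data known, so this rank is not independent support. Of the 22 genes in the list, 21 were tested. Of these 2, Cdkn1a and Serpine2, passed as higher in beta-catenin GOF and 0 passed as lower (0.0477% and 0.0239% of all genes). Neither passed in edgeR with median-ratio size factors, with scaling by library size alone, with no dispersion trend or with the length trend removed, and Serpine2 did not with the replicate block. Cdkn1a passed in 8 and Serpine2 in 7 of 14 settings other than leaving out a library, and each in 1 of the 6 fits without 1 library. The median log2 fold change was 0.54, against −0.07 over all genes, and 0.35 against 0.01 with the length trend removed. Without overlap were 9 higher and 1 lower (16.1% and 15.9% of all genes); with the length trend removed, 8 and 0 (14.4% and 9.73%). Over the 6 libraries the summed CPM of the list was 2612 to 3975 in beta-catenin GOF and 1105 to 1464 in the libraries labelled Hdac2 ECKO, with WT at 2530 to 2694. Igfbp7 carried most of that sum, and without it the group means summed to 973 and 529 CPM. The sum of the endothelial markers was also higher in beta-catenin GOF, mostly through Ly6c1, while 6 of the 10 markers lay lower, and their part in this list's levels was not tested. The unadjusted p was under 0.05 for 8 higher and 0 lower (11.3% and 9.8% of all genes). Without a count filter edgeR called 7 and 0 of 22, higher and lower (3.51% and 1.29% of all genes). DESeq2 called 4 higher and 0 lower of 15 with an adjusted p (6.53% and 3.08% of all genes). These all-gene shares also stand beside the same counts of each list below. With sample quality weights limma called 9 higher and 0 lower (14.4% and 12.1% of all genes).

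The non-overlapping members that did not pass are named after their values were seen, apart from Cdkn2b. Eda2r, a receptor of the TNF receptor family and p53 target, had 58, 22 and 86 counts in beta-catenin GOF against 2, 1 and 2 in the libraries labelled Hdac2 ECKO, and was at least 16.0-fold higher against a floor of 3 counts per library (edgeR adjusted p 0.168, not passed). All 3 WT libraries had 0 CPM of Eda2r. Phlda3, a p53-induced repressor of Akt signalling, stood at 5.53, 4.43 and 10.3 CPM against 0.151, 0.522 and 2.36 CPM (log2 fold change 2.73 with SE 0.81, adjusted p 0.168 in edgeR). Bax, the pro-apoptotic Bcl2 family member, stood at 105, 114 and 106 CPM against 35.1, 79.7 and 37.1 CPM (log2 fold change 1.10 with SE 0.39, adjusted p 0.169 in edgeR). Its locus overlaps a gene model on its own strand. Bax in WT was 117, 124 and 113 CPM, above every library labelled Hdac2 ECKO.

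Cdkn2b, an inhibitor of the cyclin D kinases, stood at 93.7, 85.1 and 58.1 CPM against 28.3, 38.1 and 21.0 CPM (log2 fold change 1.44 with SE 0.37, adjusted p 0.168 in edgeR). Gadd45b, a stress-induced growth arrest gene, was at 33.4, 18.3 and 23.1 CPM against 5.53, 13.8 and 7.70 CPM (log2 fold change 1.47 with SE 0.45, adjusted p 0.169 in edgeR). WT was higher than both at 67.8, 52.3 and 44.8 CPM. Igfbp7, a secreted binding protein of insulin-like growth factors, was at 3006, 2589.5 and 1611 CPM against 617, 947 and 574 CPM (log2 fold change 1.75 with SE 0.52, adjusted p 0.168 in edgeR). Its locus overlaps Polr2b on the opposite strand. Sesn1, a stress-responsive inhibitor of mTOR signalling, was at 86.3, 72.2 and 88.3 CPM against 70.1, 54.4 and 67.9 CPM (log2 fold change 0.36 with SE 0.25, adjusted p 0.417 in edgeR), a narrow gap. In the other direction only Cdkn1b, a cyclin-dependent kinase inhibitor related to Cdkn1a, had separate groups, at 11.1, 16.5 and 9.18 CPM against 19.5, 20.4 and 16.9 CPM (log2 fold change −0.63 with SE 0.30, adjusted p 0.245 in edgeR). The classical p53 targets Mdm2, Ccng1, Zmat3 and Pmaip1 overlapped between the groups, with log2 fold changes of −0.16, −0.09, −0.14 and −0.17, and are named after their values were seen. Of 16 tested members with a RefSeq promoter, 6 held a p53 half-site in the entry searched: Cdkn1a with 2, and Trp53, Mdm2, Ccng1, Bax and Gadd45a with 1 each. Of the other members with separate groups, Serpine2, Eda2r, Phlda3, Cdkn2b, Gadd45b, Igfbp7, Sesn1 and Cdkn1b held 0 in this window.

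**Figure D4:**
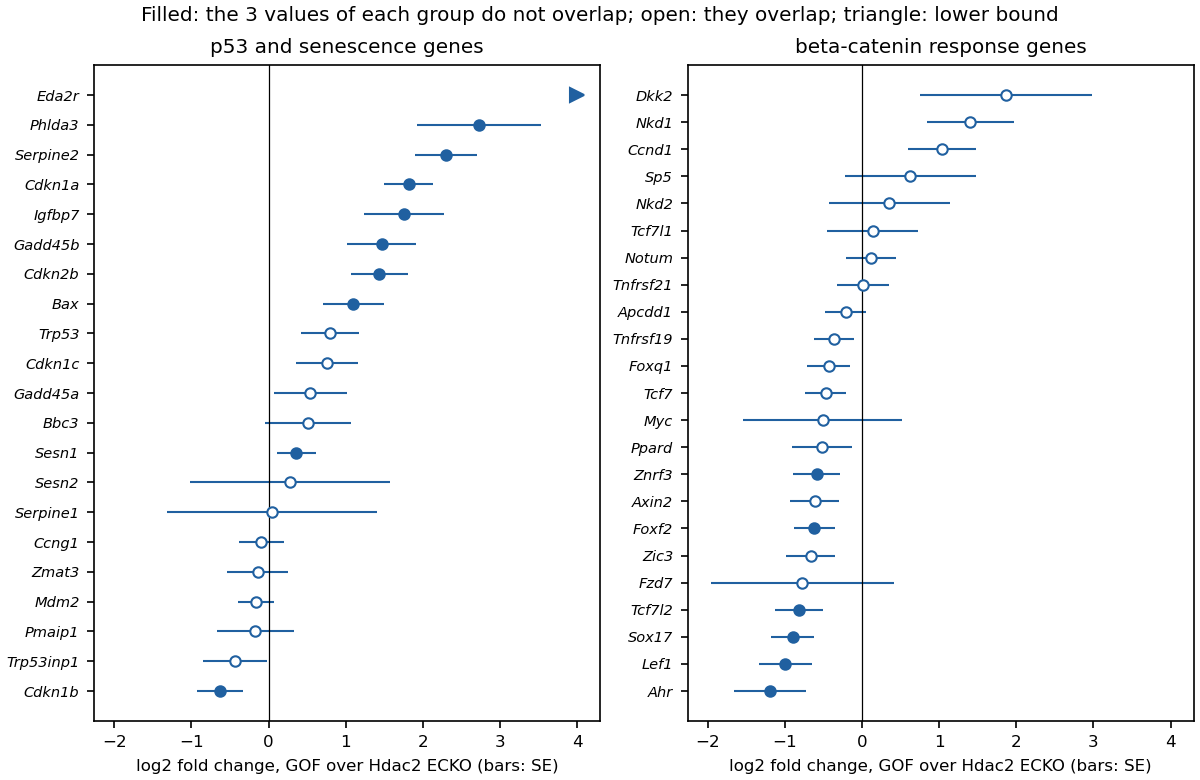
Log2 fold change of beta-catenin GOF over the libraries labelled Hdac2 ECKO (horizontal axis, bars are SE) for the tested members of 2 gene lists (vertical axis); filled points mark genes whose groups do not overlap, and the triangle is the lower bound of Eda2r. Among p53 and senescence genes 9 filled points lie above 0 and 1 below, and among beta-catenin response genes 0 lie above and 6 below.

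Beta-catenin response genes had a median below 0 in beta-catenin GOF relative to the libraries labelled Hdac2 ECKO, and 0 of them were higher without overlap. Of 30 genes in the list 23 were tested and 0 passed in edgeR. Unadjusted p-values under 0.05 numbered 2 higher and 5 lower. By DESeq2 there were 0 higher and 1 lower of 15 with an adjusted p, and by edgeR without a count filter 2 and 1 of 28. Limma with sample quality weights called 0 and 9, beside 14.4% and 12.1% of all genes. The median log2 fold change was −0.47, and −0.28 with the length trend removed, against −0.07 and 0.01 over all genes. Members with separate groups numbered 0 higher and 6 lower (16.1% and 15.9% of all genes), or 1 and 6 with the length trend removed (14.4% and 9.73%). Lef1, the TCF/LEF factor that beta-catenin itself induces, stood at 429, 322 and 208 CPM in beta-catenin GOF and 769.5, 509 and 638 CPM in the libraries labelled Hdac2 ECKO (log2 fold change −1.0 with SE 0.34, adjusted p 0.169 in edgeR). WT held 198, 359 and 364 CPM of Lef1. Sox17, an endothelial transcription factor downstream of Wnt, stood at 146, 126 and 116 CPM against 256, 168 and 299 CPM (log2 fold change −0.90 with SE 0.28, adjusted p 0.169 in edgeR). Tcf7l2, a TCF/LEF factor, stood at 34.1, 21.1 and 26.1 CPM against 60.1, 38.0 and 45.4 CPM (log2 fold change −0.82 with SE 0.31, adjusted p 0.177 in edgeR).

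The other members with separate groups, named after their values were seen, were Znrf3, a ubiquitin ligase that removes Wnt receptors, at 17.7, 19.0 and 18.3 CPM against 31.2, 25.7 and 26.0 CPM, Foxf2, a barrier transcription factor, and Ahr, the aryl hydrocarbon receptor, with log2 fold changes of −0.59, −0.62 and −1.19 (edgeR adjusted p 0.277, 0.208 and 0.183). Axin2, the usual readout of the pathway and its feedback inhibitor, was at 20.7 ± 2.70 CPM in beta-catenin GOF and 31.8 ± 10.8 CPM in the libraries labelled Hdac2 ECKO (SD, n = 3 each), with overlapping values. In WT it was at 15.5 ± 4.98 CPM. WT held 11.2, 8.14 and 15.4 CPM of Znrf3, below every beta-catenin GOF library, and 178, 167 and 185 CPM of Sox17, above every one. For Lef1, Tcf7l2, Foxf2 and Ahr, WT and beta-catenin GOF overlapped. The positive side of the list held Nkd1, Dkk2 and Ccnd1, with log2 fold changes of 1.4, 1.86 and 1.03, also named after their values were seen, and their groups overlapped. Of 30 Wnt receptor, destruction complex and co-factor genes 29 were tested and 0 passed in edgeR. At an unadjusted p under 0.05 the list had 1 higher and 5 lower. DESeq2 called 0 higher and 1 lower of 14 with an adjusted p, and edgeR without a count filter 0 and 1 of 30. Limma with sample quality weights called 0 and 7, beside 14.4% and 12.1% of all genes. The median was −0.34, and −0.17 with the length trend removed. Separate groups were seen for 1 higher and 8 lower (16.1% and 15.9% of all genes), and after removal of the length trend for 0 and 2 (14.4% and 9.73%). The higher one was the kinase gene Gsk3a (10.7, 10.6 and 5.98 against 5.19, 4.93 and 5.65 CPM).

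Among these, Reck, the membrane protein that presents Wnt7 ligands to brain endothelium, stood at 78.4, 72.6 and 75.0 CPM in beta-catenin GOF and 147, 93.6 and 132 CPM in the libraries labelled Hdac2 ECKO (log2 fold change −0.72 with SE 0.31, adjusted p 0.21 in edgeR). Dvl3, a scaffold that relays the receptor signal, stood at 8.26, 9.58 and 7.06 CPM against 16.7, 13.5 and 11.8 CPM (log2 fold change −0.76 with SE 0.32, adjusted p 0.206 in edgeR). Apc, the scaffold of the destruction complex, was at 41.8, 43.5 and 42.3 CPM against 91.1, 47.0 and 88.0 CPM. Csnk1a1, its priming kinase, stood at 118, 147 and 137 against 215, 163 and 175 CPM, and the co-receptor Lrp6 at 74.9, 77.5 and 80.2 against 95.3, 90.0 and 94.1 CPM. Fzd6, a Frizzled receptor, and the kinase gene Csnk1e were the other members without overlap on the lower side, beside Ctnnb1. Their log2 fold changes were −0.83 for Apc, −0.46 for Csnk1a1, −0.26 for Lrp6, −0.60 for Fzd6 and −0.50 for Csnk1e, and none passed. With the length trend removed these came to −0.17, 0.03, 0.30, −0.50 and −0.23, so Csnk1a1 and Lrp6 changed sign. Reck and Dvl3 came to −0.63 and −0.50. Gsk3a, Apc, Csnk1a1, Lrp6, Fzd6 and Csnk1e are named after their values were seen.

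Of 39 genes for class I deacetylases and subunits of their corepressor complexes, 37 were tested and 0 passed in edgeR. The unadjusted p was under 0.05 for 5 higher and 4 lower. Without a count filter edgeR called 2 and 0 of 38, higher and lower, and DESeq2 2 higher and 0 lower of 29 with an adjusted p. The quality weights of limma gave 7 higher and 5 lower, where all genes had 14.4% and 12.1%. Groups did not overlap for 9 members higher and 8 lower (16.1% and 15.9% of all genes), and for 10 and 1 with the length trend removed (14.4% and 9.73%). The list's median was −0.03 as fitted and 0.12 with the trend removed. The members with the smallest p were on the higher side. Dnttip1, a subunit of the mitotic deacetylase complex, stood at 29.4, 33.2 and 32.4 CPM against 9.13, 19.4 and 9.02 CPM (log2 fold change 1.34 with SE 0.37, adjusted p 0.168 in edgeR). Sap30l, a Sin3 complex subunit, stood at 30.9, 31.3 and 15 against 9.62, 11.9 and 8.67 CPM (log2 fold change 1.35 with SE 0.40, adjusted p 0.168 in edgeR). Hdac8, another class I deacetylase, stood at 7.16, 6.60 and 8.10 against 1.67, 3.07 and 3.61 CPM (log2 fold change 1.39 with SE 0.42, adjusted p 0.168 in edgeR). Hdac8 kept its size with the length trend removed, at 1.49, while Sap30l moved to 0.88. Hdac1 stood at 47.3 ± 12.2 CPM in beta-catenin GOF and 32.3 ± 5.64 CPM in the libraries labelled Hdac2 ECKO (SD, n = 3 each).

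Barrier genes showed 1 passed member, Cp, already given among the genes past the threshold. Of 25 junction genes 23 were tested and 0 passed in edgeR. Unadjusted p-values under 0.05 numbered 3 higher and 4 lower. By DESeq2 there were 1 higher and 1 lower of 19 with an adjusted p, and by edgeR without a count filter 1 and 1 of 24. The quality weights of limma gave 3 higher and 5 lower, where all genes had 14.4% and 12.1%. Without overlap were 2 higher and 7 lower (16.1% and 15.9% of all genes); with the length trend removed, 2 and 0 (14.4% and 9.73%). Their median of −0.22 became −0.01 with the trend removed. Tjp1, a scaffold of tight junctions, stood at 257, 218 and 171 CPM in beta-catenin GOF and 553, 274 and 485 CPM in the libraries labelled Hdac2 ECKO (log2 fold change −1.02 with SE 0.35, adjusted p 0.169 in edgeR; −0.65 with the trend removed). Afdn, a scaffold of adherens junctions whose locus overlaps Tcte2 in antisense, stood at 351, 342 and 408 against 674, 498 and 668 CPM (log2 fold change −0.74 with SE 0.26, adjusted p 0.169 in edgeR; −0.26 with the trend removed). Cldn5, the main claudin of the blood-brain barrier, lay the other way, at 1658, 2195 and 1028 against 435, 1111 and 545 CPM, and its groups overlapped through the library labelled Hdac2 ECKO 2 (log2 fold change 1.22 with SE 0.44, adjusted p 0.169 in edgeR). Tjp1 and Afdn have feature lengths of 7811 and 10223 bases and Cldn5 of 1416, on either side of the length trend.

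All 33 transport genes were tested; 1 was lower in beta-catenin GOF, Cp, and 0 were higher (0.0239% and 0.0477% of all genes). At an unadjusted p under 0.05 the list had 1 higher and 5 lower. DESeq2 called 1 higher and 2 lower of 30 with an adjusted p, and edgeR without a count filter 1 and 2 of 33. With sample quality weights limma called 2 higher and 4 lower (14.4% and 12.1% of all genes). Members with separate groups numbered 1 higher and 7 lower (16.1% and 15.9% of all genes), or 2 and 6 with the length trend removed (14.4% and 9.73%). The transport median was −0.24, and −0.07 with the trend removed. Slc38a5, a glutamine transporter, stood at 224, 279 and 365 CPM against 124, 96.4 and 104 CPM (log2 fold change 1.42 with SE 0.38, adjusted p 0.168 in edgeR). Abca1, the cholesterol exporter, stood at 44.0, 37.8 and 34.2 against 132, 49.9 and 74.4 CPM (log2 fold change −1.14 with SE 0.31, adjusted p 0.168 in edgeR). WT stood at 22.2, 25.5 and 30.6 CPM, below every library of both mutants.

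Angiogenic and tip-cell genes, 40 of 40 tested, held 0 called by edgeR. The unadjusted p was under 0.05 for 2 higher and 5 lower. Without a count filter edgeR called 3 and 2 of 40, higher and lower, and DESeq2 1 higher and 0 lower of 27 with an adjusted p. With sample quality weights limma called 1 higher and 9 lower (14.4% and 12.1% of all genes). Separate groups were seen for 3 higher and 5 lower (16.1% and 15.9% of all genes), and after removal of the length trend for 3 and 5 (14.4% and 9.73%). Their median was −0.11 (0.04 with the trend removed). Ramp3, which partners the adrenomedullin receptor, stood at 21.4, 20.3 and 7.96 CPM in beta-catenin GOF and 2.23, 2.55 and 2.08 CPM in the libraries labelled Hdac2 ECKO (log2 fold change 2.85 with SE 0.70, adjusted p 0.168 in edgeR). Adm, adrenomedullin itself, stood at 69.8, 57.1 and 293 against 44.2, 51.0 and 42.7 CPM (log2 fold change 1.61 with SE 0.54, adjusted p 0.169 in edgeR), with 1 beta-catenin GOF library far above the others of its group. Igfbp3, a binding protein of insulin-like growth factors, lay the other way, at 8.87, 5.96 and 10.1 against 21.6, 16.8 and 25.5 CPM (log2 fold change −1.36 with SE 0.43, adjusted p 0.169 in edgeR). Basement membrane and matrix genes, 26 of 31 tested, held 0 called by edgeR. Unadjusted p-values under 0.05 numbered 2 higher and 4 lower. By DESeq2 there were 1 higher and 1 lower of 15 with an adjusted p, and by edgeR without a count filter 1 and 1 of 31. Limma with sample quality weights called 1 and 4, beside 14.4% and 12.1% of all genes. Groups did not overlap for 1 members higher and 6 lower (16.1% and 15.9% of all genes), and for 3 and 2 with the length trend removed (14.4% and 9.73%). Their median moved from −0.01 to 0.16 when the trend was removed.

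Sparc, a secreted matrix-binding glycoprotein, was the matrix gene with the smallest p, at 1206, 1529.8 and 1290.4 CPM in beta-catenin GOF and 416, 632 and 546 CPM in the libraries labelled Hdac2 ECKO (log2 fold change 1.34 with SE 0.30, adjusted p 0.168 in edgeR). Its difference was 1.3 with the length trend removed. Itga1, an integrin subunit that binds collagen, stood at 189, 200.1 and 204 against 453, 311 and 413 CPM (log2 fold change −0.99 with SE 0.25, adjusted p 0.168 in edgeR). Hspg2, the proteoglycan perlecan, stood at 6.21, 6.52 and 4.70 against 11.7, 11.6 and 9.67 CPM (log2 fold change −0.92 with SE 0.33, adjusted p 0.169 in edgeR). With the trend removed these 2 long genes came to −0.32 and −0.35. Itga1 shares its strand with the overlapping gene Pelo. Arterial and venous genes, all 27 tested, held 0 called by edgeR. At an unadjusted p under 0.05 the list had 3 higher and 1 lower. DESeq2 called 3 higher and 0 lower of 23 with an adjusted p, and edgeR without a count filter 3 and 0 of 27. Limma with sample quality weights called 3 and 3, beside 14.4% and 12.1% of all genes. Without overlap were 4 higher and 2 lower (16.1% and 15.9% of all genes); with the length trend removed, 4 and 2 (14.4% and 9.73%). The median of this list was 0.00. Car4, the carbonic anhydrase of capillaries, stood at 2225, 3009 and 2533 CPM against 369, 1658 and 705 CPM (log2 fold change 1.51 with SE 0.49, adjusted p 0.169 in edgeR). Stmn2 stood at 247, 116 and 206 against 59.8, 104 and 108 CPM (log2 fold change 1.06 with SE 0.38, adjusted p 0.169 in edgeR). The arterial and venous list summed to 5799 to 6594 CPM in beta-catenin GOF and 4396 to 4607 CPM in the libraries labelled Hdac2 ECKO, with WT at 5544 to 6192 CPM. Car4 made that difference: without it the group means summed to 3523 and 3617 CPM, and 14 members lay higher and 13 lower.

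Antigen presentation and interferon genes, 41 of 42 tested, held 0 called by edgeR. The unadjusted p was under 0.05 for 6 higher and 1 lower. Without a count filter edgeR called 2 and 2 of 42, higher and lower, and DESeq2 2 higher and 0 lower of 27 with an adjusted p. The quality weights of limma gave 6 higher and 0 lower, where all genes had 14.4% and 12.1%. The median was −0.05. Members with separate groups numbered 7 higher and 12 lower (16.1% and 15.9% of all genes), or 6 and 9 with the length trend removed (14.4% and 9.73%). The 3 with the smallest p were interferon-stimulated genes on the higher side. Isg15, a ubiquitin-like protein, stood at 96.8, 84.5 and 68.9 CPM in beta-catenin GOF and 39.4, 48.0 and 32.4 CPM in the libraries labelled Hdac2 ECKO (log2 fold change 1.06 with SE 0.32, adjusted p 0.168 in edgeR). Usp18, which removes Isg15 from its targets, stood at 80.3, 75.7 and 85.6 against 51.9, 57.4 and 44.9 CPM (log2 fold change 0.65 with SE 0.27, adjusted p 0.195 in edgeR). Ifi27 stood at 729, 514 and 535 against 299, 339.7 and 317 CPM (log2 fold change 0.90 with SE 0.31, adjusted p 0.169 in edgeR). Cell cycle genes, 26 of 31 tested, held 0 called by edgeR. Unadjusted p-values under 0.05 numbered 1 higher and 3 lower. By DESeq2 there were 0 higher and 1 lower of 10 with an adjusted p, and by edgeR without a count filter 1 and 0 of 31. The quality weights of limma gave 1 higher and 3 lower, where all genes had 14.4% and 12.1%. Separate groups were seen for 1 higher and 3 lower (16.1% and 15.9% of all genes), and after removal of the length trend for 4 and 2 (14.4% and 9.73%). Cell cycle genes had a median of 0.02. Cdk4, a cyclin D kinase that overlaps Tspan31 on the opposite strand, stood at 189, 197 and 182 against 69.1, 133 and 71.1 CPM (log2 fold change 1.06 with SE 0.37, adjusted p 0.169 in edgeR).

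Ccna2 and Mcm4 lay the other way. Ccna2, a cyclin of the replication phase that overlaps Exosc9 on the opposite strand, stood at 17.3, 21.7 and 23.3 CPM against 37.2, 31.8 and 40.2 CPM (log2 fold change −0.81 with SE 0.25, adjusted p 0.169 in edgeR). Mcm4, a subunit of the replicative helicase, stood at 8.26, 9.52 and 14.8 against 25.4, 23.2 and 15.7 CPM (log2 fold change −0.98 with SE 0.36, adjusted p 0.17 in edgeR). Immediate early genes, 20 of 21 tested, held 0 called by edgeR. At an unadjusted p under 0.05 the list had 3 higher and 2 lower. DESeq2 called 0 higher and 1 lower of 19 with an adjusted p, and edgeR without a count filter 3 and 2 of 20. With sample quality weights limma called 3 higher and 4 lower (14.4% and 12.1% of all genes). Groups did not overlap for 4 members higher and 0 lower (16.1% and 15.9% of all genes), and for 1 and 0 with the length trend removed (14.4% and 9.73%). Immediate early genes had a median of −0.24, and −0.47 with the length trend removed. Egr3 and Egr2, zinc finger factors of the acute stimulus response, stood at 14.1, 5.33 and 7.87 and 2.32, 1.27 and 0.987 CPM in beta-catenin GOF. In the libraries labelled Hdac2 ECKO they stood at 62.6, 10.4 and 39.0 and 10.8, 1.83 and 6.52 CPM, and replicate 2 of that group overlapped beta-catenin GOF for both (edgeR adjusted p 0.168 and 0.169). Atf3, a stress-induced factor, stood at 182, 156 and 218 against 97.1, 59.1 and 117 CPM (log2 fold change 1.02 with SE 0.40, adjusted p 0.186 in edgeR).

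The 2 lists of short housekeeping genes had medians above 0 as fitted. These were 0.18 for oxidative phosphorylation and 0.08 for ribosomal proteins, below the 0.48 of the shortest length group. Nuclear oxidative phosphorylation genes, all 74 tested, have a median length of 1737 bases, against 4429 over all genes. Of these, 0 passed in edgeR. The unadjusted p was under 0.05 for 19 higher and 0 lower. Without a count filter edgeR called 9 and 0 of 74, higher and lower, and DESeq2 5 higher and 0 lower of 74 with an adjusted p. With sample quality weights limma called 21 higher and 2 lower (14.4% and 12.1% of all genes). Without overlap were 28 higher and 1 lower (16.1% and 15.9% of all genes); with the length trend removed, 19 and 6 (14.4% and 9.73%). Their median moved from 0.18 to −0.04 with the removal and to −0.02 with scaling by library size alone, so its sign depended on both. Sdhd and Sdhc, membrane anchors of succinate dehydrogenase, stood at 241, 247 and 231 and 223, 204 and 187 CPM in beta-catenin GOF against 96.4, 137 and 134 and 68.2, 122 and 94.9 CPM (log2 fold change 0.97 with SE 0.27, adjusted p 0.168 in edgeR for Sdhd). Sdhc kept 0.98 of its 1.10 with the trend removed, and Uqcrfs1, the iron-sulphur subunit of the cytochrome b-c complex, kept 0.40 of 0.86.

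Cytosolic ribosomal protein genes, all 77 tested, had a median of 0.08 as fitted and −0.24 with the length trend removed, and −0.12 with scaling by library size alone. Of them 0 passed in edgeR. Unadjusted p-values under 0.05 numbered 8 higher and 1 lower. By DESeq2 there were 3 higher and 1 lower of 77 with an adjusted p, and by edgeR without a count filter 3 and 1 of 77. Limma with sample quality weights called 13 and 1, beside 14.4% and 12.1% of all genes. Members with separate groups numbered 22 higher and 1 lower (16.1% and 15.9% of all genes), or 8 and 6 with the length trend removed (14.4% and 9.73%). Rpl29 stood at 218, 206 and 199 CPM against 70.3, 103 and 45.0 CPM (log2 fold change 1.52 with SE 0.33, adjusted p 0.164 in edgeR). Rps2 stood at 229, 192 and 237 against 80.7, 143 and 94.6 CPM (log2 fold change 1.05 with SE 0.33, adjusted p 0.169 in edgeR). Rpl26 lay the other way, at 405, 390.1 and 454 against 1160, 574 and 856 CPM (log2 fold change −1.05 with SE 0.33, adjusted p 0.169 in edgeR). Ribosomal protein genes have many processed copies in the genome, and reads divided among copies would make their counts uncertain.

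**Figure D5:**
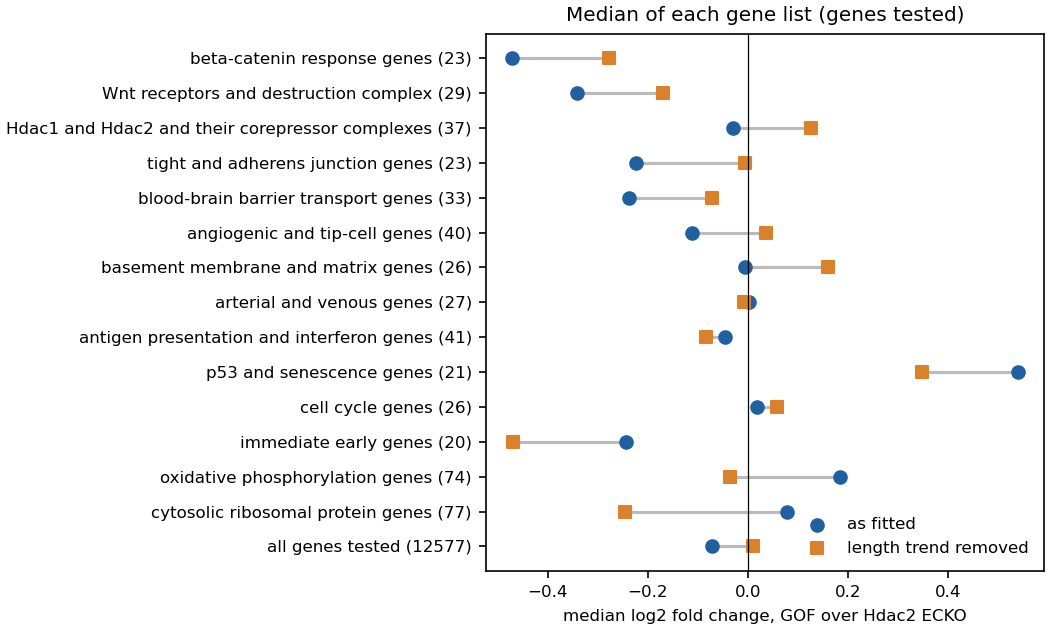
Median log2 fold change of beta-catenin GOF over the libraries labelled Hdac2 ECKO (horizontal axis) for each gene list, with the number of genes tested in brackets (vertical axis); circles are values as fitted and squares values with the length trend removed. The p53 and senescence list lies highest of the pathway lists at 0.54 and 0.35, and the oxidative phosphorylation and ribosomal protein lists are among those that change sign. The lists were chosen with earlier results of these data known.

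Markers of other cells than endothelium summed to under 100 CPM per cell type and library except for the pericyte and smooth muscle and the erythrocyte and platelet lists. Pericyte and smooth muscle markers, of which 14 of 15 were tested, summed to 139 to 461 CPM in beta-catenin GOF and 154 to 367 CPM in the libraries labelled Hdac2 ECKO, and 0 of them were at 0 counts in all 6 libraries. Myh11, the smooth muscle myosin, stood at 25.5, 5.22 and 4.88 CPM against 60.9, 11.9 and 34.0 CPM. Ndufa4l2, which overlaps Shmt2 in antisense, stood at 18.2, 6.60 and 2.90 against 3.79, 3.98 and 0.763 CPM and Abcc9 at 0.205, 0.633 and 1.97 against 5.04, 1.57 and 3.40 CPM, all overlapping. Erythrocyte and platelet markers, all 8 tested, ranged from 528 to 35410 CPM in beta-catenin GOF and from 406 to 21720 CPM in the libraries labelled Hdac2 ECKO. The haemoglobin gene Hbb-bt stood at 5892, 91.6 and 5078 CPM against 3439.7, 69.4 and 165 CPM, and each group held libraries far apart. Microglia and leukocyte markers summed to 2.73 to 6.68 and 4.85 to 7.80 CPM, with Cd53 at 0 counts in all 6 libraries. Ptprc, the gene of the CD45 antigen that the sort excludes, stood at 0, 0 and 0.0581 against 1.29, 0.0653 and 0.208 CPM. Csf1r, the receptor of a macrophage growth factor, whose locus overlaps Hmgxb3 in antisense, lay the other way without overlap, at 2.39, 3.06 and 2.96 against 2.35, 1.37 and 1.87 CPM (log2 fold change 0.59 with SE 0.52, adjusted p 0.522 in edgeR). Itga2b, the gene of the CD41 antigen that the sort also excludes, stood at 32.8, 15.8 and 8.60 against 14.4, 5.29 and 7.45 CPM (log2 fold change 1.07 with SE 0.48, adjusted p 0.223 in edgeR), and its groups overlapped.

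Astrocyte markers summed to 37.9 to 54.1 CPM in beta-catenin GOF and 50.8 to 76.4 CPM in the libraries labelled Hdac2 ECKO. Of them Slc1a3, a glutamate transporter, stood at 1.3, 2.32 and 1.80 against 10.6, 8.29 and 6.80 CPM (log2 fold change −2.24 with SE 0.77, adjusted p 0.169 in edgeR). Gja1, a connexin, stood at 51.7, 42.6 and 33.7 against 64.9, 40.4 and 44.5 CPM. Neuronal markers summed to 5.80 to 7.95 and 2.22 to 6.82 CPM, fibroblast markers to 5.78 to 7.93 and 2.90 to 10.8 CPM, and oligodendrocyte lineage markers to 13.4 to 27.6 and 14.2 to 28.4 CPM, with Olig1 and Olig2 at 0 counts in all 6 libraries. Among endothelial markers, Erg, an endothelial transcription factor, stood at 78.8, 74.1 and 72.1 against 147, 90.9 and 142 CPM (log2 fold change −0.75 with SE 0.27, adjusted p 0.169 in edgeR). Ly6c1, a surface protein of brain endothelium, stood at 13866, 11226 and 15415 against 7182, 8642 and 8572 CPM (log2 fold change 0.73 with SE 0.27, adjusted p 0.17 in edgeR). The part of other cells' RNA in the differences between the groups was not tested.

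The 8 genes in each direction with the smallest p outside the threshold and without overlap are given as values, and none of them passed. On the higher side, Gpx6, a glutathione peroxidase, had 0 counts in all 3 libraries labelled Hdac2 ECKO and 38, 24 and 114 in beta-catenin GOF, at least 16.6-fold higher against a floor of 3 counts per library (edgeR adjusted p 0.154). Gstm2, a glutathione transferase of a family with close copies, stood at 203, 156 and 249.8 CPM against 62.6, 112 and 71.0 CPM (log2 fold change 1.31 with SE 0.28, adjusted p 0.163 in edgeR). Cbr2, a carbonyl reductase, stood at 21.4, 8.34 and 3.08 CPM in beta-catenin GOF and 0, 0 and 0.416 CPM in the libraries labelled Hdac2 ECKO (log2 fold change 6.25 with SE 1.33, adjusted p 0.163 in edgeR). WT held 0.416, 0 and 0.107 CPM. Aspscr1, the glucose transporter tether also called TUG, stood at 97.3, 97.5 and 103 against 20.2, 39.7 and 21.4 CPM (log2 fold change 1.87 with SE 0.38, adjusted p 0.154 in edgeR). Uchl1, a deubiquitinating enzyme best known from neurons, stood at 24.9, 12.6 and 19.6 against 3.11, 7.31 and 4.92 CPM (log2 fold change 1.89 with SE 0.38, adjusted p 0.154 in edgeR).

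Zfp235, a zinc finger gene, stood at 19.8, 20.6 and 13.6 CPM against 5.30, 8.19 and 6.93 CPM. Hrct1 stood at 302, 208 and 208 against 69.6, 86.7 and 70.3 CPM and Smagp, a small membrane adhesion protein, at 105, 113 and 98.0 against 18.9, 44.1 and 29.5 CPM (edgeR adjusted p 0.16, 0.163 and 0.163). On the lower side, Etl4, with a feature length of 16148 bases, had the smallest p, at 17.3, 21.3 and 14.2 against 60.9, 36.1 and 68.5 CPM (log2 fold change −1.65 with SE 0.31, adjusted p 0.115 in edgeR, and −1.0 with the length trend removed). Ets2, an ETS family transcription factor, stood at 46.2, 54.8 and 41.2 against 97.8, 86.7 and 101 CPM (log2 fold change −1.01 with SE 0.22, adjusted p 0.163 in edgeR). Cald1, the actin-binding caldesmon, stood at 34.5, 21.9 and 26.3 against 107, 43.8 and 75.8 CPM (log2 fold change −1.46 with SE 0.31, adjusted p 0.163 in edgeR). Fam214a stood at 11.8, 15.4 and 13.2 against 34.1, 32.4 and 32.7 CPM and Csnk1g1, a casein kinase, at 8.70, 8.79 and 11.4 against 31.0, 16.4 and 24.7 CPM. Csnk1g1, with a feature length of 15621 bases, came to −0.67 with the length trend removed, from −1.32. The zinc finger gene Zfp993, at 16.1, 12.6 and 10.5 against 44.6, 29.5 and 37.7 CPM, had a larger difference with the trend removed, −2.03 from −1.51.

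The gene models Gm10260 and Gm11127 had the largest differences of this lower set. Gm10260 (chromosome 13, 97760072 to 97760632) stood at 9.48, 7.33 and 9.12 CPM in beta-catenin GOF and 80.7, 72.6 and 131 CPM in the libraries labelled Hdac2 ECKO (log2 fold change −3.45 with SE 0.77, adjusted p 0.168 in edgeR). WT stood at 7.08, 5.76 and 7.83 CPM. Gm11127 (chromosome 17, 36055816 to 36058371), which overlaps Gm6034 on the opposite strand, stood at 0.0341, 0.0792 and 0.232 against 2.39, 7.96 and 6.69 CPM (log2 fold change −5.56 with SE 1.24, adjusted p 0.168 in edgeR). In the libraries labelled Ezh2 ECKO both were at the high level in replicates 1 and 2 and at the low level in replicate 3, at 111, 176 and 4.45 CPM for Gm10260 and 4.86, 8.19 and 0.251 CPM for Gm11127. Whether reads of near-identical copies reached these gene models was not tested.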

How the data were processed

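RNA of sorted endothelial cells was sequenced as paired-end libraries, and 12 libraries in 4 groups of 3 were used. The deposited table holds counts per gene: its title calls them normalized, but the values are whole numbers with unequal totals (24781070 to 36109975 in the 6 libraries compared) and mostly even, as when both mates are counted. The submitters' processing notes name FastQC, cutadapt, STAR, featureCounts, DESeq2 and the build mm10 without roles or versions. Strand and annotation are not given in the sources used here.

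The test was edgeR's (4.0.16, R 4.3.3) quasi-likelihood F test with TMM scaling, in 1 fit of 4 groups, over 12577 genes averaging 10 or more counts, with Benjamini-Hochberg adjustment and a threshold of 0.05. The length trend was removed with a natural spline (5 df) on log10 of the feature length given with the counts, entered as an offset for each library. Alternatives used limma 3.58.1 and DESeq2 1.42.0. Counts were simulated from these libraries for this comparison over 12577 genes, with changes planted in 200 genes with a mean above 1 CPM. Of the planted genes, 81% of those changed 4-fold and 90% of those changed 8-fold were recovered. Recovery of genes at lower levels was not tested. Of the calls, 5% were unchanged genes. A planted length trend raised that share to 42.7%, and its removal lowered it to 4.5%. With the planted trend those counts gave 295 calls at a rho of −0.554 with length, where the real libraries gave 9 at −0.442. Whether these shares hold for the real libraries was not tested.

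Genes named are the targeted genes, those past the threshold (up to 15 in each direction), the 8 smallest p-values in each direction outside it without overlap between groups, those past it with the length trend removed, and up to 3 of each list by p. The members and lists were chosen with earlier results of these data known. Replicate numbers were not treated as pairs. Genes linked to the Y chromosome and Xist were not analysed here. Folds against groups at or under 3 counts per library set each library of that group at 3 counts. They are lower bounds of the observed fold. They allow for neither counting error nor the spread between libraries.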

Additional observations from a re-analysis of the deposited data

Results flagged for a closer look

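The mutants differ from each other, and so in their difference from the shared WT group, for 9 genes tested directly with edgeR's quasi-likelihood test. The log2 fold changes of beta-catenin GOF over the libraries labelled Hdac2 ECKO were −6.09 for Npw, −2.57 for Cp and −3.17 for Hjurp on the lower side. On the higher side they were 2.94 for Gsta4, 2.30 for Serpine2, 1.82 for Cdkn1a, 1.81 for Cd59b, 1.69 for Sft2d1 and 1.68 for Gimap4. The 2 groups did not overlap for any of the 9 genes, as was so for 32% of all genes tested. The 9 were picked by p from these same libraries, so this separation adds no support. The gene length trend and the summed endothelial markers moved with the same groups, the sum mostly through Ly6c1 while 6 of the 10 markers lay lower in beta-catenin GOF, and their part in these differences was not tested beyond the length removal.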

How the results depend on the processing

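The 9 genes past the threshold became 4 with scaling by library size alone, 978 with no count filter, 3339 with sample quality weights in limma and 621 in DESeq2, where 6467 genes had an adjusted p. Removing the length trend, or length and GC trends, gave 1. Leaving out each library in turn gave 0 to 538 genes, the highest without the library labelled Hdac2 ECKO 2. With the length trend also removed, an alternative chosen after seeing the data, it gave 0, 1 and 0 genes without beta-catenin GOF 1, 2 and 3, and 3, 29 and 0 without the libraries labelled Hdac2 ECKO 1, 2 and 3. The cause of these changes was not tested. A fit of only the 6 libraries also gave 9 genes, 4 of them shared with the 9. The rho of log2 fold change with length moved from −0.442 to −0.02 with length removed, −0.025 with length and GC removed and −0.161 with no filter. With the replicate number as a block 13 genes passed, and 1 with the replicate block and the length trend removed; deviations of same-numbered libraries from their group means had correlations of 0.181, 0.213 and −0.042, so the numbers were not taken as pairs, and beta-catenin GOF 3 correlated best with the library labelled Hdac2 ECKO 2, at 0.051. Of 22 lists, 13 had a median that changed sign in at least 1 of 10 alternatives. The medians of the other 9 did not. Among them were the p53 and senescence, beta-catenin response and Wnt receptor lists, at 0.347 to 0.92, −0.648 to −0.278 and −0.557 to −0.169. The transport (−0.428 to −0.072), junction (−0.398 to −0.006), immediate early (−0.53 to −0.102) and erythrocyte and platelet lists (0.858 to 3.98) also kept their sign. So did the pericyte and smooth muscle list (−1.28 to −0.02) and the microglia and leukocyte list, which reached 0. Genes of few counts limit precision, and 3 libraries a group allow no exact permutation p below 0.10.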

Other observations

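Some genes, chosen after the data were seen, were at or under 3 counts in every library of 1 mutant and above it in every library of the other, and of these only Eda2r is in a list. In 7 genes every library labelled Hdac2 ECKO had at most 3 counts and every beta-catenin GOF library more. Beside Gpx6 and Eda2r these include Kremen2, a receptor for the Wnt inhibitor Dickkopf, at least 10.7-fold higher in beta-catenin GOF, Ccdc154, at least 15.8-fold, and Arl14, a small GTPase, at least 13.0-fold, all against a floor of 3 counts per library. In 10 genes the reverse held. Plag1, a zinc finger transcription factor, was at least 21.6-fold lower in beta-catenin GOF, Hectd2, a ubiquitin ligase, at least 17.2-fold, Hecw2, another ubiquitin ligase, at least 9.70-fold, and Itgb8, the integrin beta subunit that activates TGF-beta, at least 3.46-fold. None of the 17 passed in edgeR, with adjusted p from 0.154 to 0.358, and the separation is narrow for some of them: Plag1 had as few as 4 counts in a library of the higher group and up to 3 in the other, and Itgb8, Arl14 and Npl also had a library of 4 counts in the higher group.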
